A study of Mus musculus with 15 samples.

Results

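Deep crypt secretory cells of the mouse colon were taken as colon cells that carried at least 1 UMI (unique molecular identifier, 1 captured RNA molecule) of 3 or more of the 5 genes Reg4, Mptx1, Retnlb, Sval1 and Klk1, with these 5 genes together making up 0.2% or more of the cell's UMIs. The rule was met by 395 of 4372 colon cells (9.03%), which is 2.09% of the 18919 cells of the series. These 395 cells are the members described here. The study profiled single cells from the proximal and distal small intestine and the colon with Seq-Well, a nanowell method, in its version with second strand synthesis. A high-fat diet (HFD, D12492, 60% of calories from fat) was given to 3 mice. The control was a purified, sucrose-matched diet (CD, D12450J, 10% of calories from fat), given to 2 mice. All 5 mice were 6 months old and carried the Lgr5-eGFP-IRES-CreERT2 knock-in, which places eGFP under the promoter of the stem cell gene Lgr5, so CD mice carried it as well.

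Deep crypt secretory cells sit at the base of colonic crypts, wedged between Lgr5-expressing stem cells. They are known as cells positive for Reg4 and for the receptor tyrosine kinase Kit, as a source of the Notch ligands Dll1 and Dll4 and of Egf for the neighbouring stem cells, and as the colonic counterpart to the Paneth cells of the small intestine. They belong to the secretory lineage, which depends on the transcription factor Atoh1, and share much of their mucus programme with goblet cells.

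Each gene of the rule encodes a secreted protein. Reg4 is a C-type lectin of the Reg family and lies at chr3:98222138-98236748 (mm10, the mouse build of the files, with gene spans from RefSeq). Mptx1, a mucosal pentraxin, lies at chr1:174330518-174332877, Retnlb, the resistin-like molecule beta, at chr16:48816856-48818892, Sval1, named for its likeness to a seminal vesicle antigen, at chr6:41951628-41956098, and Klk1, a tissue kallikrein, at chr7:44225360-44229622. The 300 bases around the start sites (250 before, 50 after) of 4 of these genes and of Mptx2, the close relative of Mptx1, are shown because the same 10 bases, TATAAGAGCT, stand in 3 of them. The sequences are those of RefSeq on GRCm38.p6. They run from chr1:174330268-174330567 on the plus strand for Mptx1, chr1:173277707-173278006 on the minus strand for Mptx2, chr3:98221906-98222205 on the plus strand for Reg4, chr6:41951378-41951677 on the plus strand for Sval1 and chr7:44225110-44225409 on the plus strand for Klk1. Capitals mark TATAAGAGCT in Mptx1, Mptx2 and Reg4, GTAAACA in Reg4 and CAGCTG in Sval1.
Mptx1: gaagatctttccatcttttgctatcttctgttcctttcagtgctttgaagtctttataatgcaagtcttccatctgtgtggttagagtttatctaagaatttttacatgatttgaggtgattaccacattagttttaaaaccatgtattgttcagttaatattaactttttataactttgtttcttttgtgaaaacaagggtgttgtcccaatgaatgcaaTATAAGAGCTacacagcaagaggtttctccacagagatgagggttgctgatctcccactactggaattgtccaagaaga
Mptx2: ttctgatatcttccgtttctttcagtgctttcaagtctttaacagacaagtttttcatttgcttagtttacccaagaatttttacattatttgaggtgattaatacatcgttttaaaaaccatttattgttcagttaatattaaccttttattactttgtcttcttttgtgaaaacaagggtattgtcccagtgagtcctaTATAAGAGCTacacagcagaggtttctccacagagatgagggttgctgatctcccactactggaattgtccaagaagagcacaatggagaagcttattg
Reg4: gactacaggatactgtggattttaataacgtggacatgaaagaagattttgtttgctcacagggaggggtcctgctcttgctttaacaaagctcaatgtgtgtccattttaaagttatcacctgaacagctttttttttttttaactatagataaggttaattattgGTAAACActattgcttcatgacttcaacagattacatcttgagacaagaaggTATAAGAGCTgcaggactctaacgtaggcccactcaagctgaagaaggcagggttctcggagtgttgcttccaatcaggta
Sval1: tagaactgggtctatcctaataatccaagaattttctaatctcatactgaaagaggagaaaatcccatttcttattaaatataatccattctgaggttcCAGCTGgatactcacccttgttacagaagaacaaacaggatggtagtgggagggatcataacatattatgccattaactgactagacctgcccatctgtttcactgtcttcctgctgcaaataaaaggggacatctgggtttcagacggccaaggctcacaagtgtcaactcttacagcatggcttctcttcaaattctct
Klk1: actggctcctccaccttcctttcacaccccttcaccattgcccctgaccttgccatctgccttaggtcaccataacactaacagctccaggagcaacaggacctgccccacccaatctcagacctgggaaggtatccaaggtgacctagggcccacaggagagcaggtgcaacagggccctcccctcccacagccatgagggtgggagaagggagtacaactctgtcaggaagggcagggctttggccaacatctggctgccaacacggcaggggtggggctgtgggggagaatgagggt

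Motifs were searched on both strands in these 5 windows and in 27025 mouse promoter windows of the same length. The 10 bases TATAAGAGCT stood in 16 of all windows (0.0592%), starting 29 bases before the start site in Mptx1, 49 before it in Mptx2 and 31 before it in Reg4. This string was taken as the longest run shared by Mptx1 and Reg4 just before their start sites. Its presence in those windows is therefore fixed by the choice, and they are counted among the 16. It contains the TATA box core TATAA, which 25.5% of windows held and which 4 of the 5 windows shown held. The E-box CAGCTG, a string that Atoh1 can bind, stood in Sval1 and in 16.1% of all windows. The FOXA core TGTTTAC stood, as its reverse complement GTAAACA, in Reg4 and in 3.55% of all windows. The cyclic AMP response core TGACGT (7.64% of windows) and the CDX core TTTATG (12.1%) stood in none of the 5. The shared run in Mptx1 and Mptx2 belongs to a longer likeness, since 88.8% of their aligned promoter bases and 92.4% of their aligned transcript bases were identical. The transcripts shared a run of 112 bases at most, and their last 300 bases, 89.8% identical, a run of 30. Counts of this pair could be split wrongly between them, which was not tested.

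The colon libraries differed in depth and in what they held beside epithelium. Members had a median of 16765, 3813.5 and 19862 UMIs per cell in HFD mice 1, 2 and 3 and of 4968 and 18910.5 in CD mice 1 and 2, and 246716 to 3075194 UMIs in all per mouse. Cells that carried T or B cell markers made up 46.4%, 30.6% and 3.18% of colon cells in the HFD mice and 4.88% and 9.42% in the CD mice. HFD mouse 1 held only 15 members, under the minimum of 20, so it is left out of the comparisons across genes and its values are printed beside them. Scrublet marked 8 members as likely doublets, and no member's barcode was shared with another library.

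The cells met the rule in different ways. Exactly 3 of the 5 genes were detected in 91 members, 4 in 237 and all 5 in 67. The 5 genes made up a median of 0.935% of a member's UMIs, with quartiles at 0.497% and 1.91% and a highest value of 7.79%. The lowest member was at 0.202%. Another 411 colon cells carried 3 or more of the genes below the 0.2% limit, at a median of 0.0259% and up to 0.198%. Near the limit lay 49 members under 0.3% and, among non-members with 3 or more of the genes, 50 cells at 0.1% or more, while another 49 cells reached 0.2% with 2 of the genes. Mptx1 was the most abundant of the 5 genes in 163 members, Reg4 in 143, Klk1 in 52, Retnlb in 24 and Sval1 in 13.

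Since the members were chosen by their UMIs of these 5 genes, the levels in members are a description. Reg4 stood at 4054, 8013 and 3859 CPM (counts per 1000000 summed UMIs) in members of HFD mice 1, 2 and 3 and at 4475 and 4229 CPM in members of CD mice 1 and 2, against 43.2 to 104.7 CPM in other colon cells. Mptx1 stood at 2977, 5783 and 8338 CPM in HFD members and at 4884 and 6138 CPM in CD members, against 9.66 to 76.4 CPM in other cells. Klk1 stood at 1724, 2524 and 1279 CPM in HFD members and 1828 and 1544 CPM in CD members, against 105.3 to 156.5 CPM in other cells. In these 3 genes the members of every mouse lay far above the other cells of every mouse. Sval1 stood at 896, 478 and 729 CPM in HFD members and 422 and 673 CPM in CD members, against 0.748 to 7.77 CPM in other cells. Retnlb was the most uneven, at 1168, 3593 and 277 CPM in HFD members and at 430 and 889 CPM in CD members, against 7.67 to 47.0 CPM in other cells. In T and B cells, which should lack both genes, Reg4 reached 16.6 to 40.5 CPM, below the other colon cells of the same mouse in all 5 mice. Mptx1 was at 8.77, 66.3 and 45.1 CPM in T and B cells of HFD mice and 0 and 35.7 CPM in those of CD mice, against 9.66, 76.4, 41.9, 10.6 and 52.1 CPM in other colon cells of the same mice, so a low level of Mptx1 outside members is not read as expression.

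**Figure D1:**
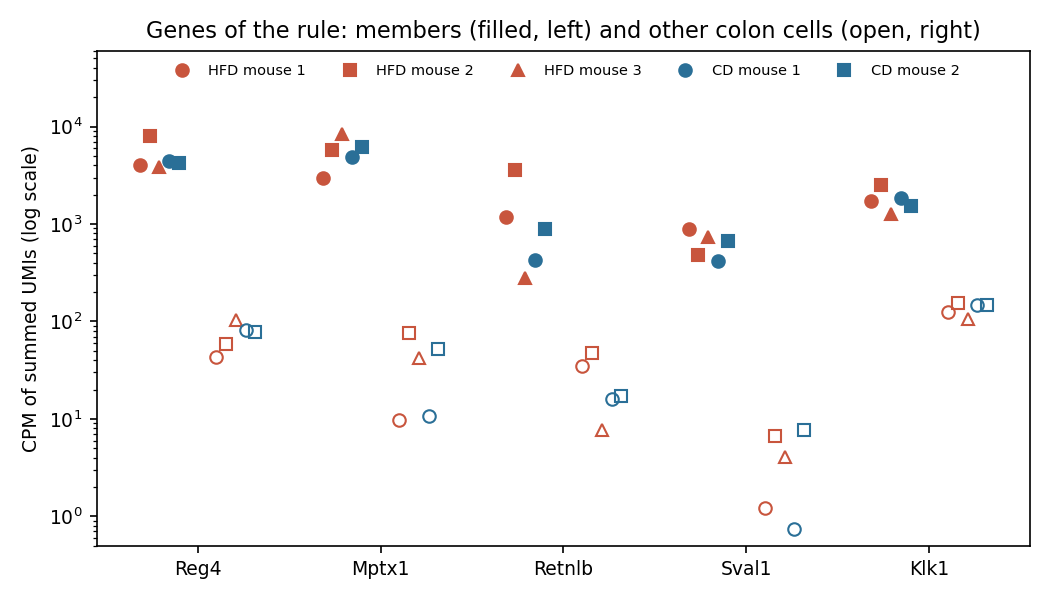
Level of each of the 5 genes of the rule (CPM of summed UMIs, log scale) in members (filled, left) and in other colon cells (open, right), 1 point per mouse, red for HFD and blue for CD. In members Retnlb spans 277 to 3593 CPM between mice, while Reg4 spans 3859 to 8013 CPM.

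Within the 395 members some genes were even and others came from few cells. Klk1 was detected in 390 members and the 40 members with the most of it held 24.8% of its level, with each cell's count taken relative to its own UMIs. The disulphide isomerase Agr2, needed for mucin folding, was detected in 391 members with 23.1% in 40 cells, and the protease inhibitor Spink4 in 392 members with 29.5%. Kit was detected in 330 members with 28.5%. Reg4, Mptx1 and Sval1 were less even, with 45.0%, 49.9% and 49.0% of their level in 40 cells. Retnlb was detected in 180 members and 66.7% of its level lay in 40 of them. For the mucus lectin Zg16 the share in 40 members was 97.1%, for the antimicrobial ribonuclease Ang4 96.0% and for the mucus protease Clca3, an older symbol for the gene now called Clca1, 81.6%. These shares pool mice of different levels. Within each mouse, the highest 2 to 15 members held 91.9 to 100% of Zg16, 86.5 to 99.7% of Ang4, 59.2 to 86.2% of Clca3, 21.6 to 40.2% of Klk1 and 22.6 to 25.3% of Agr2.

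Against the other colon cells of the same mouse, members carried a mucus and secretory programme. Ratios were taken within each of the 4 mice with 20 or more members after adding 10 CPM to both sides, and a gene counted where it was at least 2-fold apart in 1 direction in every mouse. Of 15447 genes, 195 (1.26%) were higher in members and 149 (0.965%) were lower. Since the rule chose the cells on these counts, this is a description with no test. Ccl6, a chemokine, reached 1327, 1745 and 3042 CPM in HFD members and 1751 and 2023 CPM in CD members, against 58.1, 63.2, 83.1, 11.2 and 83.4 CPM in the other cells of the same mice (mean log2 ratio 5.11 ± 0.88, SD, n = 4 mice). Ramp1, which partners the receptor for calcitonin gene-related peptide, was at 272 to 541 CPM in members and at 8.08 to 20.6 CPM in other cells (4.17 ± 0.20). No member value of either gene overlapped the other cells' values. The secreted phospholipase Pla2g2f (3.55 ± 0.38) and Nov, the older symbol of the matricellular protein Ccn3 (3.40 ± 1.62), were also among the 15 genes with the largest ratios, and Nov was uneven, with members at 16.2 to 358 CPM.

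Of 40 mucus and goblet cell genes measured, 23 were past the fold higher in members and 1 lower, with a median log2 ratio of 1.79, beside -0.07 over all genes. Spink4 stood at 4128, 7966 and 3501 CPM in HFD members and 5212 and 5450 CPM in CD members, against 95.9 to 181 CPM in other cells (5.04 ± 0.24). Agr2 stood at 14994, 10301 and 6753 CPM in HFD members and 8974 and 8307 CPM in CD members, against 1051 to 1442 CPM in other cells (2.94 ± 0.23). The trefoil peptide Tff3 was at 3.40 ± 0.37 and the mucus protein Fcgbp at 3.86 ± 0.78. Clca3 (4.49 ± 1.17) and Zg16 (3.67 ± 1.14) varied more between mice, and Zg16 stood at 60.8 CPM in members of CD mouse 1 and at 2807 CPM in those of CD mouse 2. The gel-forming mucin Muc2 was not analysed here.

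Most factors that direct secretory fate were higher as well, with 8 of 18 past the fold higher and 1 lower. Their median log2 ratio was 0.94. Atoh1, the factor that commits progenitors to the secretory lineage, stood at 461, 440 and 486 CPM in HFD members and 336 and 328 CPM in CD members, against 27.9 to 56.0 CPM in other cells (3.09 ± 0.44). Spdef, which drives goblet maturation, was at 2.66 ± 0.46, Creb3l4 at 2.48 ± 0.22 and Creb3l1, a membrane-bound factor that expands the secretory pathway, at 1.77 ± 0.08. Foxa3 (1.80), Bhlha15 (1.73), Foxa2 (1.49) and Xbp1 (1.3), the factor of the unfolded protein response, completed the 8. Sox9 (0.25) and Klf4 (0.61), known from the crypt base and from goblet cells, were not past the fold. Of 44 genes of folding and secretion in the endoplasmic reticulum, 40 had ratios above 0 in all 4 mice. This held for 1890 of all 15447 genes. Past the fold were 7 of the 44 (median of the list 0.91), among them Ern2 (2.13), a stress sensor of mucous cells, and the disulphide isomerase Pdia5 (2.17). The receptor chain Il13ra1, which binds IL-13, was past the fold at 1.56 ± 0.23, with members at 150 to 219 CPM and other cells at 33.8 to 73.5 CPM, while its partner Il4ra was at -0.06.

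The niche signals these cells are known for were mixed. Kit stood at 327, 282 and 339 CPM in HFD members and at 288 and 214 CPM in CD members, against 44.2 to 89.5 CPM in other cells (1.93 ± 0.36). Dll1 stood at 60.6, 36.4 and 93.6 CPM in HFD members and at 118 and 68.3 CPM in CD members, against 8.82 to 39.1 CPM in other cells (1.71 ± 0.43). Both were past the fold in every mouse. Dll4 (1.39 ± 0.33) was just under the limit in HFD mouse 2 (0.99), and Egf (0.81 ± 0.18) had members at 6.73 to 12.9 CPM and other cells at 1.00 to 3.67 CPM. Wnt3, a Wnt ligand of Paneth cells, was listed at 0 in members of 4 mice and at 2.28 CPM in those of CD mouse 2. Kitl, the ligand of Kit, was lower in members (-1.81 ± 0.36). The receptor Notch1 stood at 3.90 to 20.3 CPM in members of 4 mice and was listed at 0 in those of HFD mouse 1, against 67.9 to 118 CPM in other cells (-2.39 ± 0.24). Over the whole list of niche ligands, 2 of 20 were higher and 1 lower, with a median of -0.03.

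Some genes of the other colon lineages were lower in members. Of 31 genes of absorptive colonocytes, 8 were past the fold lower and 1 higher (median -0.97). Car1, a carbonic anhydrase of surface colonocytes, stood at 0, 12.1 and 82.7 CPM in HFD members and 12.2 and 79.7 CPM in CD members, against 46.0, 148, 1908, 357 and 2584 CPM in other cells of the same mice. The membrane mucin Muc3 (-3.76), the scavenger receptor protein Dmbt1 (-3.53), the antimicrobial lectin Reg3b (-3.43) and Krt20 (-3.13) were among the 10 lowest. Of 10 MHC class II genes, 4 were past the fold lower (median -1.36), among them H2-Aa (-1.70 ± 0.65). Of 26 stem cell genes other than Lgr5, 0 were higher and 2 lower (median -0.38), and of 32 cell cycle genes 0 were higher and 2 lower (median -0.71). Of 30 enteroendocrine markers 0 were higher and 2 lower (median -0.35), and of 16 tuft cell markers 0 were past the fold in either direction (median -0.29). Ptprc (CD45, -3.07) and Igkc (-3.25) were lower too, and of 22 T and B cell markers 4 were (median -1.46).

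**Figure D2:**
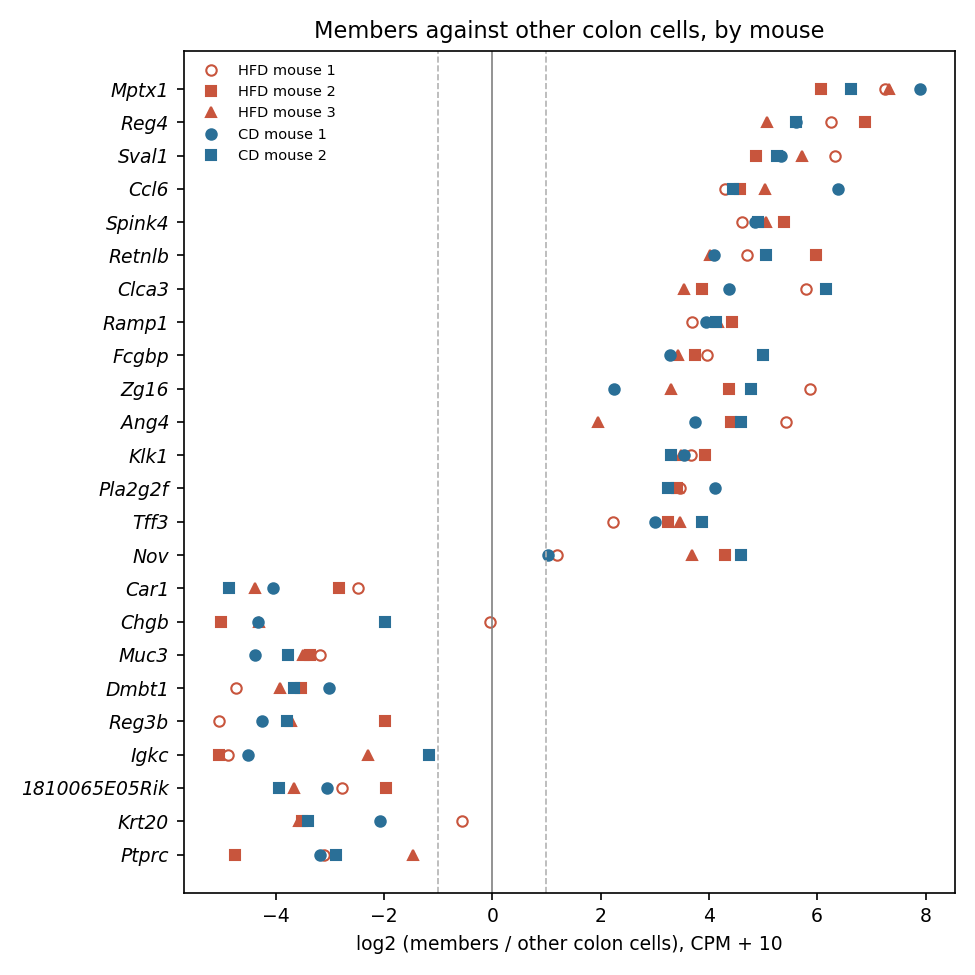
Log2 ratio of members over other colon cells (10 CPM added to both) for the 15 genes with the largest and 9 of the 10 with the most negative mean ratio, 1 point per mouse, HFD in red and CD in blue, with HFD mouse 1 (15 members, not used for the choice) open. Dashed lines mark a 2-fold difference, and Mptx1 has the largest mean, 6.98, while Car1 has the lowest, -4.03.

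The cells most like members in the colon were other mucus cells, taken here as non-members with 3 or more of Fcgbp, Clca3, Zg16 and Spink4 at 0.2% or more of their UMIs. HFD mouse 3 and CD mice 1 and 2 held 24, 23 and 26 of them, and the comparison rests on these 3 mice. Of 14477 genes, 21 (0.145%) were higher in members and 2 (0.0138%) lower. Of the genes of the rule, Mptx1, Reg4, Sval1 and Klk1 were among the 21. Retnlb was not, at 277, 430 and 889 CPM in members and 96.3, 472 and 140.1 CPM in other mucus cells. Because the other mucus cells are non-members, the choice of cells itself favours higher levels of these genes in members. Of 347 colon cells that met the mucus rule, 258 (74.4%) were members, so the other mucus cells are those left over. Members had more of Ccl6, at 3042 CPM in HFD mouse 3 and at 1751 and 2023 CPM in CD mice 1 and 2, against 529, 132 and 536 CPM in their other mucus cells (2.68 ± 0.88, SD, n = 3 mice). The chloride and bicarbonate channel Best2 was at 119, 81.1 and 54.6 CPM in members, against 8.76, 12 and 0 CPM in other mucus cells. The protease Cma1 was at 70.2, 32.4 and 57.2 CPM in members and listed at 0 in the other mucus cells of all 3 mice. Best2 and Cma1 did not overlap between the groups.

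Glycan enzymes and a posterior Hox gene were in the same set. The glycosyltransferases B3gnt7 (2.08 ± 0.29) and Gcnt1 (1.99 ± 0.66) were higher in members, as were the growth hormone receptor Ghr (1.63 ± 0.37), Spink4 (1.70 ± 0.51) and Ramp1 (1.52 ± 0.29). Hoxb13, a homeobox gene of the posterior gut, stood at 355, 349 and 226 CPM in members, against 70.1, 102 and 69.3 CPM in other mucus cells (1.82 ± 0.33). Myof (-1.57 ± 0.55) and Eya2 (-1.26 ± 0.32) were lower. What separated members from all other colon cells did not separate them from other mucus cells for several genes of the lineage: Kit was at -0.05 ± 0.25, Dll4 at -0.04 ± 0.08, Dll1 at 0.25 ± 0.26, Atoh1 at 0.15 ± 0.31, Spdef at -0.20 ± 0.46, Tff3 at 0.07 ± 0.24 and Agr2 at -0.31 ± 0.16. The counts depended on how many mice had to be past the fold, with 25, 47 and 56 genes higher and 9, 11 and 17 lower without HFD mouse 3, CD mouse 1 and CD mouse 2. They were 104 higher and 33 lower with 1 CPM added in place of 10, and 154 and 40 after thinning to 2000 UMIs per cell.

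Members were not all alike, and they are split here by Retnlb, a gene of the rule. Members with a Retnlb UMI numbered 9, 42 and 33 in HFD mice 1, 2 and 3 and 15 and 81 in CD mice 1 and 2, and those without it 6, 32, 84, 26 and 67 in the same order of mice. This split was chosen after its values were seen and is given with no test. In the 4 mice with 20 or more members, 28 of 14340 genes (0.195%) were past the 2-fold limit higher in members with Retnlb in every mouse and 17 (0.119%) were lower. Members with Retnlb were deeper, at medians of 9247.5, 24320, 6846 and 21362 UMIs in HFD mice 2 and 3 and CD mice 1 and 2, against 2796.5, 19275.5, 4487.5 and 15355 in those without. Every cell was then thinned to 2000 UMIs and the split was redrawn on these counts. In all 4 mice, 22 of the 28 and 15 of the 17 kept their direction. Retnlb itself, which is fixed by the split, is counted in the 28 and in the 22.

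Ang4 led the genes that were higher with Retnlb. In HFD mice 2 and 3 and CD mice 1 and 2, 40.5%, 27.3%, 20% and 40.7% of members with Retnlb carried it. Of members without, 9.38%, 4.76%, 11.5% and 17.9% carried Ang4, and in HFD mouse 1 the share was 33.3% on both sides. It stood at 2173, 111 and 599 CPM in members with Retnlb of HFD mice 2 and 3 and CD mouse 1 and at 766 CPM in those of CD mouse 2, against 23.9, 4.56, 249 and 70.1 CPM in members without. The intestinal fatty acid binding protein Fabp2 stood at 183, 207, 245 and 207 CPM with Retnlb, against 12, 22.8, 87.8 and 21.7 CPM without. The ribonucleases Rnase4 (mean log2 ratio 1.63) and Ang (1.52), the chemokine Ccl9 (1.66), the semaphorin and VEGF receptor Nrp2 (1.89) and the glycosyltransferases A4gnt (1.47) and B4galt4 (1.32) were past the limit in the same direction.

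Members without Retnlb, which by the rule carried 3 or more of its other 4 genes, had more of another set. Dll1 stood at 10.2, 40.8, 27.2 and 34.6 CPM with Retnlb in HFD mice 2 and 3 and CD mice 1 and 2, against 114, 118, 190 and 121 CPM without. Best2 stood at 24.4, 50.7, 9.08 and 33.0 CPM with Retnlb, against 180, 151, 139 and 88.5 CPM without. In HFD mouse 1, Dll1 was at 55.2 CPM with Retnlb and 81.6 CPM without, and Best2 at 33.9 and 212 CPM. Hoxd13 stood at 0, 38.4, 0 and 3.73 CPM with Retnlb, against 77.8, 138, 65.9 and 49.3 CPM without. Hoxb13 stood at 124, 189, 182 and 133 CPM with Retnlb, against 407, 431, 483 and 372 CPM without. The 4 genes were lower with Retnlb in each of these mice. The alcohol dehydrogenase Adh1 (-1.87) and the thyroid hormone carrier Ttr (-2.10) were further genes of this side.

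Of 16 Hox genes at 10 CPM or more in members with or without Retnlb of at least 1 mouse, Hoxb13 and Hoxd13 were the 2 that were lower with Retnlb in all 4 mice, 5 were higher in all 4 and the rest, Hoxa13 among them, did not keep 1 direction. A UMI of Hoxb13 or Hoxd13 was found in 33.3% of members with Retnlb against 62.5% of those without in HFD mouse 2, in 51.5% against 95.2% in HFD mouse 3, in 33.3% against 96.2% in CD mouse 1 and in 59.3% against 94.0% in CD mouse 2. The deeper cells thus had the lower shares. Of the 5, Hoxa11 was at 24.4, 17.3, 36.3 and 17.0 CPM with Retnlb and 0, 7.41, 0 and 5.84 CPM without, and Hoxb7 at 24.4, 29.7, 27.2 and 18.6 CPM with and 0, 3.99, 14.6 and 2.50 CPM without. These levels were low, and after thinning Hoxb7 kept this direction in all 4 and Hoxa11 did not. Kit did not follow the split, at 256, 348, 291 and 195 CPM with Retnlb and 359, 336, 286 and 245 CPM without. Tff3 was at 731, 1824, 926 and 2738 CPM with Retnlb and 3710, 3406, 2869.5 and 5375 CPM without. Among the genes of the rule, Sval1 was detected in 51.7% of members with Retnlb and in 82.3% of those without, a difference that the rule itself shapes, since a cell without Retnlb needs 3 of the other 4 genes.

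**Figure D3:**
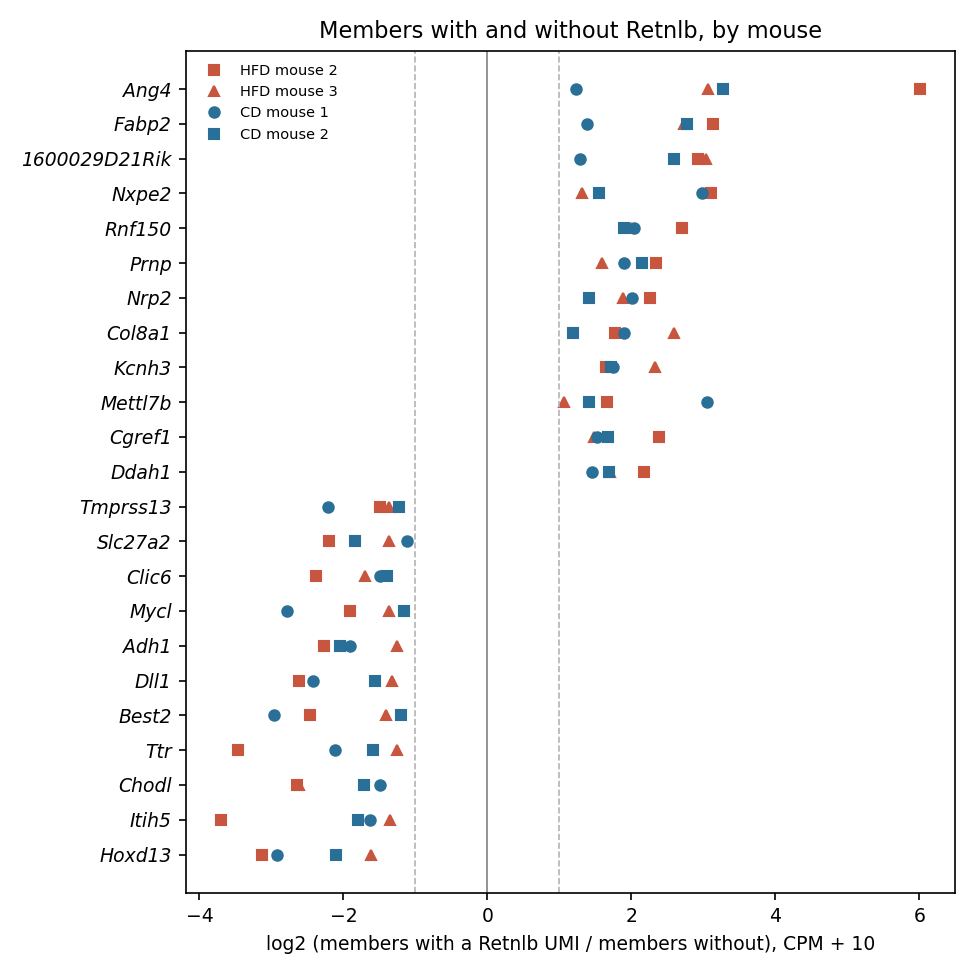
Log2 ratio of members with a Retnlb UMI over members without (10 CPM added to both) for the 12 most positive and 11 of the 12 most negative mean ratios other than Retnlb itself among genes at least 2-fold apart in all 4 mice, 1 point per mouse. Ang4 lies at the top, with 6.01 in HFD mouse 2, and Hoxd13 at the bottom, with -3.13 in the same mouse.

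Markers of other cell types were checked in members. At least 3 of 5 epithelial markers were detected in 93.3%, 85.1% and 100% of members in HFD mice 1, 2 and 3 and in 100% in both CD mice. The authors' stem cell call, which is an Lgr5 or eGFP UMI, was met by 0%, 1.35% and 2.56% of HFD members and 4.88% and 1.35% of CD members, against 14.8%, 10.4%, 20%, 19.1% and 14.7% of the other cells of the same mice. Of 7 Paneth markers, the 3 defensins Defa24, Defa17 and Defa22 were at 0 in members of every mouse. Ang4 was at 589, 1628 and 38.2 CPM in HFD members and 405 and 495 CPM in CD members, against 2.51 to 67.6 CPM in other cells. Itln1 reached 77.4 CPM and Mmp7 35.1 CPM at most, both in CD mouse 2. The 7 markers summed to 413 to 1719 CPM in members, against 5.97 to 71.3 CPM in other cells. Ang4 made up all 589 CPM in HFD mouse 1, 1628 of 1719 CPM in HFD mouse 2 and 405 of 413 CPM in CD mouse 1. It was 495 of 741 CPM in CD mouse 2, while Lyz1 was 470 of 544 CPM in HFD mouse 3. Of 24 Paneth genes in the data, 15 had a count in the mice compared. Of these 15, 3 were past the fold higher and 1 lower (median log2 ratio 1.34). Lysozyme, Lyz1, was at 0, 34.9 and 470 CPM in HFD members and 0 and 134 CPM in CD members, and Mptx2 at 0, 0 and 10.5 CPM in HFD members and 0 and 624 CPM in CD members. Mptx2 was thus almost wholly a gene of CD mouse 2, where 61.5% of members carried a UMI of it. Mptx1 stood at 2977, 5783 and 4884 CPM in members of HFD mice 1 and 2 and CD mouse 1, where Mptx2 was at 0. It stood at 8338 and 6138 CPM in those of HFD mouse 3 and CD mouse 2. The part of the likeness to Mptx1 in the Mptx2 count of CD mouse 2 was not tested. The 10 enteroendocrine markers summed to 50.5, 63.7 and 1728 CPM in HFD members and 20.3 and 555 CPM in CD members. In other colon cells they summed to 13.5, 530 and 1791 CPM under HFD and 486 and 1421 CPM under CD. In HFD mouse 3, 19 members (16.2%) carried 3 or more, against 16.0% of its other colon cells. In CD mouse 2, 15 members (10.1%) did, against 5.84%. After thinning, the shares were 1.71% against 4.06% in HFD mouse 3 and 1.35% against 2.52% in CD mouse 2. T and B cell markers summed to 145, 56.1 and 33.9 CPM in HFD members and 12.2 and 34.8 CPM in CD members, against 165 to 1879 CPM in other cells.

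The rule found few cells outside the colon. It was met by 12 of 8052 cells of the proximal small intestine (0.149%) and by 39 of 6495 cells of the distal small intestine (0.600%). Sval1 was at 0 and 25.3 CPM and Retnlb at 0 and 5.34 CPM in these proximal and distal cells, against 676 and 916 CPM over all colon members. Lyz1 was at 5747 and 10870 CPM and the Paneth and goblet lectin Itln1 at 5246 and 10392 CPM, against 239 and 49.5 CPM in colon members. The cells that met the rule in the small intestine therefore differed in composition from those in the colon, with Lyz1 and Itln1 high and Retnlb and Sval1 low.

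The comparison by diet asked whether members were more or less frequent under HFD. Members were 15 of 549 colon cells (2.73%, 95% exact Clopper-Pearson interval 1.54 to 4.47%), 74 of 324 (22.8%, 18.4 to 27.8%) and 117 of 1102 (10.6%, 8.86 to 12.6%) in HFD mice 1, 2 and 3. They were 41 of 1495 (2.74%, 1.98 to 3.70%) and 148 of 902 (16.4%, 14.0 to 19.0%) in CD mice 1 and 2. The intervals cover counting error only, and the mice of each diet differed far beyond them. The mean was 12.1 ± 10.1% under HFD (SD, n = 3) and 9.58 ± 9.66% under CD (SD, n = 2), a difference of 2.49 points with an exact permutation p of 1, two-sided, in a design that cannot go below 0.1. Its sign turned to -2.90 points without HFD mouse 2 and to -4.35 points without CD mouse 1. Over colon cells without T and B cells, members were 5.10%, 32.9% and 11% under HFD and 2.88% and 18.1% under CD (exact permutation p = 0.8).

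**Figure D4:**
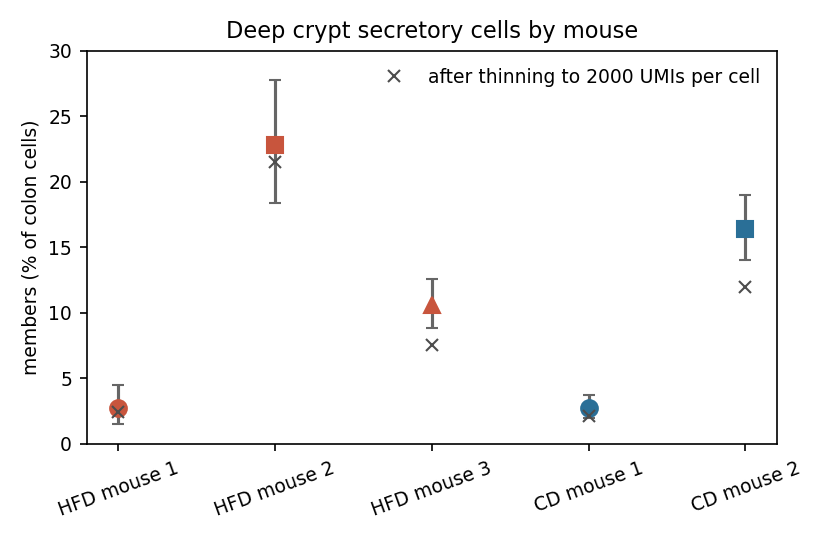
Members as a percentage of colon cells in each mouse, HFD in red and CD in blue, with 95% exact binomial intervals and, as crosses, the percentage after thinning each cell to 2000 UMIs. HFD mouse 2 at 22.8% and CD mouse 2 at 16.4% lie highest, while HFD mouse 1 and CD mouse 1 both lie near 2.7%.

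Gene levels in members were compared by diet with edgeR's quasi-likelihood test on the members' summed UMIs of HFD mice 2 and 3 against CD mice 1 and 2, and no gene passed. Of 9674 genes tested, 0 (0%) had a Benjamini-Hochberg adjusted p under 0.05, and 223 had an unadjusted p under 0.05, 74 of them higher and 149 lower under HFD. DESeq2 called 2, Igha and Igkc. The count moved with the mice used, since 32, 57, 9 and 4 genes were called without HFD mouse 2, HFD mouse 3, CD mouse 1 and CD mouse 2, and 0 genes were shared by all 4 of these fits. Each of those fits has 1 mouse in 1 diet, which is assumed to vary like the 2 mice of the other. P-values measure the spread between these mice only. In other colon cells of the 5 mice 0 of 12663 genes were called (149 at an unadjusted p under 0.05, 6 by DESeq2), and 0 of 11584 genes were called for a difference between the diet effects (114 at an unadjusted p under 0.05, 0 by DESeq2). That last count was 24, 77, 9 and 1 without HFD mouse 2, HFD mouse 3, CD mouse 1 and CD mouse 2.

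None of the 5 genes of the rule passed the test by diet. The log2 fold change of HFD over CD was 0.54 ± 0.41 for Reg4 (SE), 0.40 ± 0.33 for Mptx1, 0.27 ± 0.38 for Klk1, 0.17 ± 0.33 for Sval1 and 1.65 ± 0.88 for Retnlb, with adjusted p of 1 for each by edgeR's quasi-likelihood test. The sign was not stable for Reg4 (-0.18) and Klk1 (-0.40) without HFD mouse 2, for Sval1 without HFD mouse 3 (-0.08) or CD mouse 1 (-0.15), and for Mptx1 with the replicate number as a block (-0.33). All 5 overlapped between the diets, and Retnlb was highest in HFD mouse 2 and lowest in HFD mouse 3. The Retnlb value was -1.295 without HFD mouse 2 and 2.56 without HFD mouse 3. Atoh1, at 461, 440 and 486 CPM in HFD members and 336 and 328 CPM in CD members, did not overlap (0.54 ± 0.26, adjusted p = 1 by edgeR). Of 17 secretory factors tested, both HFD mice of the fit lay above both CD mice for 2 and below for 5. The shares over all 9674 genes were 12.6% and 16.4%, and the median of the 17 was -0.05.

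Among the 6 genes with the smallest p in each direction, immunoglobulin transcripts came first among those higher under HFD. Choosing genes by p in these mice favours values that do not overlap between the diets. Igha, the IgA heavy chain, was at 209, 62.2 and 99.9 CPM in HFD members and 16.2 and 7.80 CPM in CD members (log2 fold change 3.22 ± 0.40, adjusted p = 0.107 by edgeR). Igkc, the kappa chain, was at 57.2, 31.8 and 57.3 CPM in HFD members and 0 and 3.25 CPM in CD members (adjusted p = 0.143). In other colon cells Igha was at 2951, 1386 and 570 CPM under HFD and 294 and 26.0 CPM under CD, in nearly the same order of mice, and its part in the members' values was not tested. The joining chain Igj, with 12.1 and 10.5 CPM in members of HFD mice 2 and 3, had 0 and 0.325 CPM in CD members.

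Cpt1a, the enzyme that admits long-chain fatty acids to mitochondria for oxidation, was at 333, 188 and 188 CPM in HFD members and 93.2 and 103 CPM in CD members. The 3 HFD values all lay above both CD values, with a log2 fold change of 0.97 ± 0.25 (adjusted p = 1 by edgeR). In other colon cells it was at 304, 223 and 326 CPM under HFD and 218 and 184 CPM under CD (0.46 ± 0.22), and the difference between the effects was 0.49 ± 0.32 (adjusted p = 1 by edgeR). The co-activator Ppargc1a was at 36.4 and 67.1 CPM in members of HFD mice 2 and 3 and at 24.3 and 33.8 CPM in CD members (0.80 ± 0.35, adjusted p = 1 by edgeR), and HFD mouse 1, at 23.6 CPM, lay below both CD mice. Of 38 PPAR target and fatty acid oxidation genes tested in members, 0 were called. Both HFD mice in the fit lay above both CD mice for 10 of the 38 and below for 3, against 12.6% and 16.4% of all 9674 genes, and the median log2 fold change was 0.17, against 0.01 over all genes. The circadian repressor Nr1d2 (1.44 ± 0.40) and the hormone gene Pyy (3.69 ± 1.10) were also among the 6. Pyy, at 239 CPM in HFD mouse 3 and 0 to 11.7 CPM in members of the other mice, followed the enteroendocrine markers of that library, whose part was not tested.

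Aqp4, a water channel, led the genes that were lower under HFD. It was at 23.6, 21.2 and 32.4 CPM in HFD members and 105 and 86.2 CPM in CD members (-1.69 ± 0.30, adjusted p = 0.605 by edgeR). In other colon cells it was at 391, 456 and 358 CPM under HFD and 299 and 542 CPM under CD (-0.11 ± 0.32), and the difference between the effects was -1.54 ± 0.41 (adjusted p = 1 by edgeR). The desaturase Scd1 was at 6.73, 7.58 and 9.36 CPM in HFD members and 28.4 and 47.5 CPM in CD members (-2.22 ± 0.43, adjusted p = 0.838 by edgeR), and in other colon cells at 143, 132 and 16.7 CPM under HFD and 52.2 and 63.8 CPM under CD. For Aqp4 and Scd1 in members, the 3 HFD mice lay below the 2 CD mice. The related desaturases Scd2, at 556, 478 and 762 CPM in HFD members and 1362 and 1008 CPM in CD members (-0.87 ± 0.31), and Fads1 (-2.19 ± 0.61) had adjusted p of 1 by edgeR, and Fads1 in HFD mouse 1, at 104 CPM, lay within the CD range of 27.6 to 105 CPM. Of 17 fatty acid synthesis and desaturation genes tested, 0 were called and the median was -0.06.

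Among the other genes of this direction, the ATP synthase subunit gene Usmg5 was at 108, 19.7 and 27.7 CPM in HFD members and 126 and 73.8 CPM in CD members, and the ribosomal protein gene Rpl35 at 148, 22.7 and 29.3 CPM in HFD members and 255 and 68.9 CPM in CD members. For both, HFD mouse 1 lay within the CD range. Ccdc117 was at 30.3, 19.7 and 27.3 CPM in HFD members and 56.7 and 68.0 CPM in CD members, and AW112010 at 165, 111 and 95.6 CPM in HFD members and 280 and 215 CPM in CD members, with the 3 HFD mice below both CD mice. Of 46 nuclear genes of oxidative phosphorylation, 0 were called, 27 lay lower and 1 higher in both HFD mice of the fit than in both CD mice, beside 16.4% and 12.6% of all genes, and the median was -0.27, against -0.25 in other colon cells. The genes with the smallest p for a difference between the diet effects of members and other colon cells were mostly low in one of the groups. Gm6086 stood at 43.8, 62.2 and 100.3 CPM in HFD members and 64.9 and 62.8 CPM in CD members, and at 7.37, 0 and 0.71 CPM in other cells of HFD mice and 3.61 and 18.4 CPM in those of CD mice (difference 4.77 ± 0.72, adjusted p = 0.077 by edgeR), so its values in members were close between diets. The hormone gene Ghrl had the same adjusted p, with 13.3 CPM in members of HFD mouse 3 and 0 to 0.325 CPM in the other members. Pyy, Isl1, Fhl1 and Cox7a1 were the next in this direction and Slpi, Chga, Tph1, Sis, Fads1 and Filip1l the first in the other, with adjusted p of 0.958 to 1 by edgeR. Chga and Tph1 are enteroendocrine genes, and Chga stood at 0, 0 and 16.4 CPM in HFD members and at 4.05 and 109 CPM in CD members. The mucus list had a median by diet of 0.03 over 36 genes and the folding list one of -0.02 over 44, each with 0 called.

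**Figure D5:**
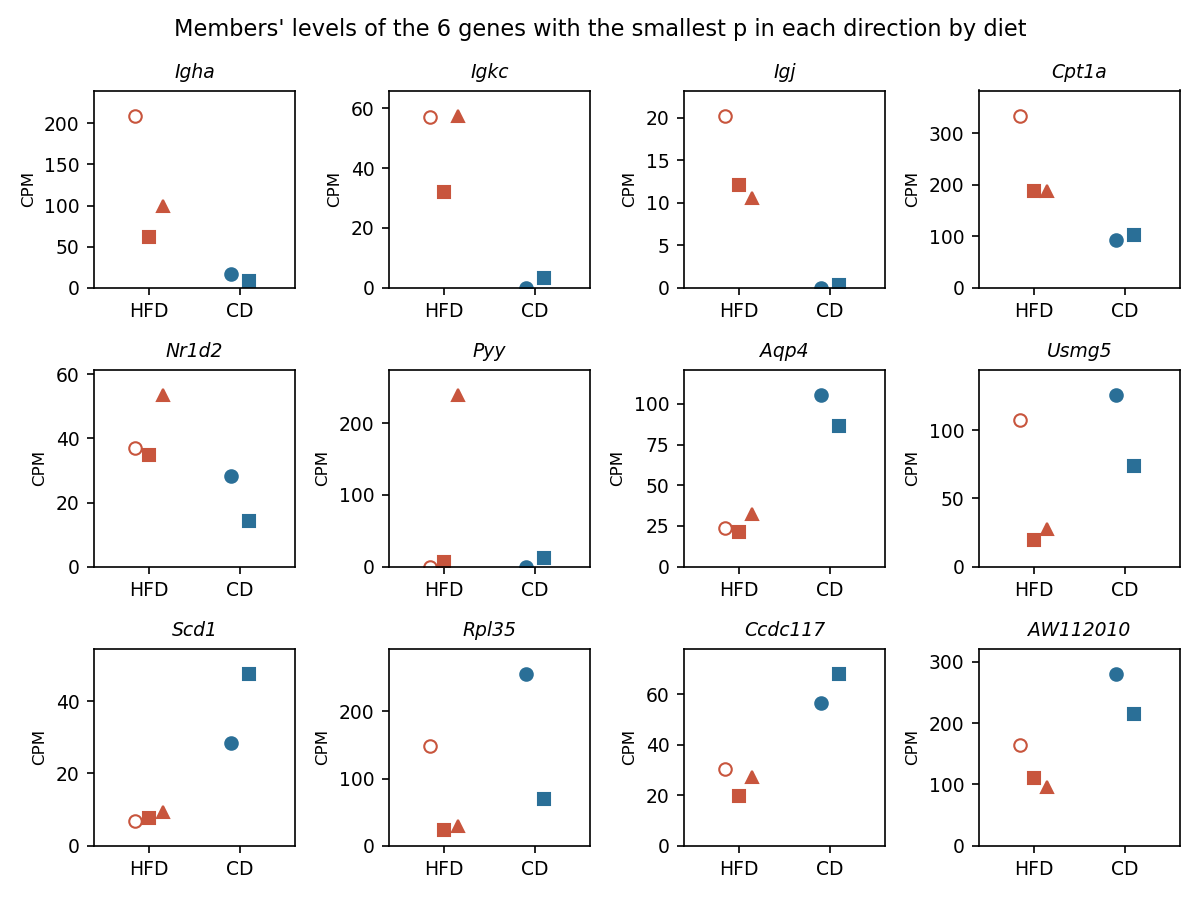
Level in members (CPM, axes from 0) of the 6 genes with the smallest p in each direction, 1 point per mouse, HFD (left, red) and CD (right, blue), with HFD mouse 1 open because its 15 members were not in the fit. None passed the adjusted threshold, and the 3 HFD mice lie apart from both CD mice for all genes but Pyy, Usmg5 and Rpl35. The genes were chosen by p in HFD mice 2 and 3 and the CD mice, which favours such a separation. Of all 9674 genes tested, both HFD mice of the fit lay above both CD mice in 12.6% and below in 16.4%. The share over all genes was not counted with HFD mouse 1 included.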

How the data were processed

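Raw counts per gene and cell were deposited by the authors with a table of cell labels (unit: counts, UMIs). Reads were aligned to mm10, per the submitters' processing notes. The aligner, the counter and the gene annotation are not given in the sources used here. The cell table numbers the control mice 1 and 3 and the sample titles 1 and 2, so its mouse 3 was taken as CD mouse 2 by elimination. Every cell deposited was kept (538 UMIs or more per cell, 17185 genes). Cells were not removed as doublets. Scrublet (scanpy 1.11.5) marked 33 colon cells (0.755%), left out only in an alternative. Members, gene lists and tests were chosen with earlier results of these data known. Counts were summed per mouse over members and over other colon cells, and tested with edgeR 4.0.16 (quasi-likelihood, TMM, low-count filter by diet, Benjamini-Hochberg over all genes tested, adjusted p under 0.05) in R 4.3.3, for mice with 20 or more members. DESeq2 1.42.0 was an alternative. Shares were compared with an exact permutation test over mice in Python 3.11.15. Diet genes named are the 6 with the smallest p in each direction, since none was called. Ratio genes named are the 15 largest and 10 most negative. Genes of the rule and of the lists could also be named. The Retnlb split, the genes named for it, the mucus rule with Clca3 and the shared promoter string were chosen after seeing values. The scripts were tested on simulated data. Mice share replicate numbers across diets but nothing in the labels pairs them. Some genes that these rules would name are not reported here.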

Additional observations from a re-analysis of the deposited data

How the results depend on the processing

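The difference in member share by diet was 2.49 points and ranged from -4.35 to 9.32 points when 1 mouse was left out, negative without HFD mouse 2 (-2.90) and without CD mouse 1 (-4.35). With 10 CPM added, 195 genes were higher and 149 lower in members than in other colon cells. With 1 CPM these were 313 and 591, and with 50 CPM 104 and 34. Against other mucus cells, 21 and 2 became 104 and 33 with 1 CPM, 11 and 0 with 50 CPM, 154 and 40 after thinning, and 25 to 56 and 9 to 17 without 1 mouse. For diet in members, 0 genes became 2 with DESeq2, 52 with no filter on low counts, 9 with depth as a covariate and 4 to 57 without 1 mouse. Other colon cells gave 6 with DESeq2. For the difference between the diet effects, 0 became 11 with no filter, 3 without doublets, 1 with 10 or more members per mouse and 1 to 77 without 1 mouse. The cause of these moves was not tested. The log2 fold change by diet ranged over mice left out from -0.40 to 0.73 for Klk1, -0.18 to 1.03 for Reg4, -1.30 to 2.56 for Retnlb and -0.15 to 0.63 for Sval1, where -0.08 was also seen.

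With the replicate number as a block (mice 1 and 2 of each diet, 10 or more members), 31 genes were called by diet in members, and Mptx1 turned to -0.33. The numbers are not stated to pair the mice, and the planned block with 20 or more members could not be run, since HFD mouse 1 held 15.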

Other observations

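Transcripts of immediate early and stress genes were uneven between mice of the same diet. In members, Fos stood at 57.2, 320 and 2894 CPM in HFD mice 1, 2 and 3 and at 296 and 2437 CPM in CD mice 1 and 2, and Atf3 at 3.37, 37.9 and 974 CPM in HFD mice and at 81.1 and 749 CPM in CD mice. HFD mouse 3 and CD mouse 2, the mice with the deepest colon cells, were the highest for both. The heat shock genes Hspa1a (269 CPM) and Hspa1b (206 CPM) and the acute phase gene Saa1 (390 CPM) were highest in members of CD mouse 2, while the proglucagon gene Gcg stood at 1286 CPM in HFD mouse 3, against 0 to 104 CPM in the other mice.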
